A study of Mus musculus with 20 samples.

Results

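Inguinal white adipose tissue (iWAT), a subcutaneous fat depot, was compared between mice whose adipocytes lost Alpha4 (α4) and Control mice. The libraries were taken by their tissue label: of the 20 libraries of the series, the 10 made from iWAT were used, 5 from Control and 5 from Ai-α4KO mice, and the other 10 came from brown fat (BAT). Ai-α4KO mice carried floxed α4 alleles and an Adiponectin-CreERT2 transgene, a Cre recombinase that the adiponectin promoter drives in adipocytes and that tamoxifen switches on. Control mice carried the floxed alleles without the Cre transgene, although the labels call them wild type, and they received tamoxifen too. All mice were males of a mixed C57Bl/6 background. Tamoxifen was given at 100 mg/kg in 5 injections over 6 days from 2 months of age, and tissue was taken 1 week after recombination. The transgene is meant to act in adipocytes, and recombination in the vessels, nerves, immune cells and progenitors of the depot was not measured here. The labels do not say whether a library held 1 mouse or a pool, nor whether the same mice gave both depots, so p-values measure the spread between these libraries.

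α4 binds free catalytic subunits of protein phosphatase 2A and of its relatives PP4 and PP6 and keeps them stable. These phosphatases remove phosphate from serine and threonine and act on insulin signaling, stress kinases, the DNA damage response and the exit from mitosis. White adipocytes take up glucose and fatty acids, make and store triglyceride under insulin and secrete hormones such as adiponectin and leptin. The inguinal depot can also hold beige adipocytes, which burn fuel through uncoupling protein 1.

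Each library held between 28059955 and 50384427 counts, and the difference in totals between the groups was within their spread (two-sided exact permutation test, n = 5 each, p = 0.365). The composition was not alike: the TMM factors were 0.893 to 1.01 in Control and 1.02 to 1.055 in Ai-α4KO libraries, and the 10 most abundant genes took 9.67 to 13.8% and 5.79 to 6.85% of counts (exact permutation p = 0.0079 for each, the smallest possible). The ribosomal precursor Rn45s took up to 3.24% of counts, in Control 3 (exact permutation p = 0.0238). Expression is given as CPM, counts divided by the TMM-scaled size of the library, and values of single libraries are listed in the order of replicates 1 to 5. Markers of adipocytes were abundant in all 10 libraries, and the sum of 7 of them was 30829 to 43257 CPM in Control and 13113 to 18197 CPM in Ai-α4KO libraries. Some libraries held markers of other tissue. The sum of 12 B lymphocyte markers was 667 CPM in Control 1 and 267 CPM in Control 4, against 16.1 to 35.95 CPM in the other 8 libraries. For 6 T lymphocyte markers it was 234 and 254 CPM in Control 1 and Control 4, against 8.39 to 58.3 CPM elsewhere. Lymphocytes of this kind fill the lymph node that lies in the inguinal depot. The sum of 10 skeletal muscle markers was 9581 CPM in Control 4 and 5537 CPM in Ai-α4KO 1, against 6.74 to 242 CPM in the others. Markers of skin epithelium summed to 4.15 CPM at most. Several values that depend on these 3 libraries are given below also without them. The tissue is a mixture, so fewer cells of a type and less RNA per cell cannot be told apart in any of the values that follow.

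**Figure D1:**
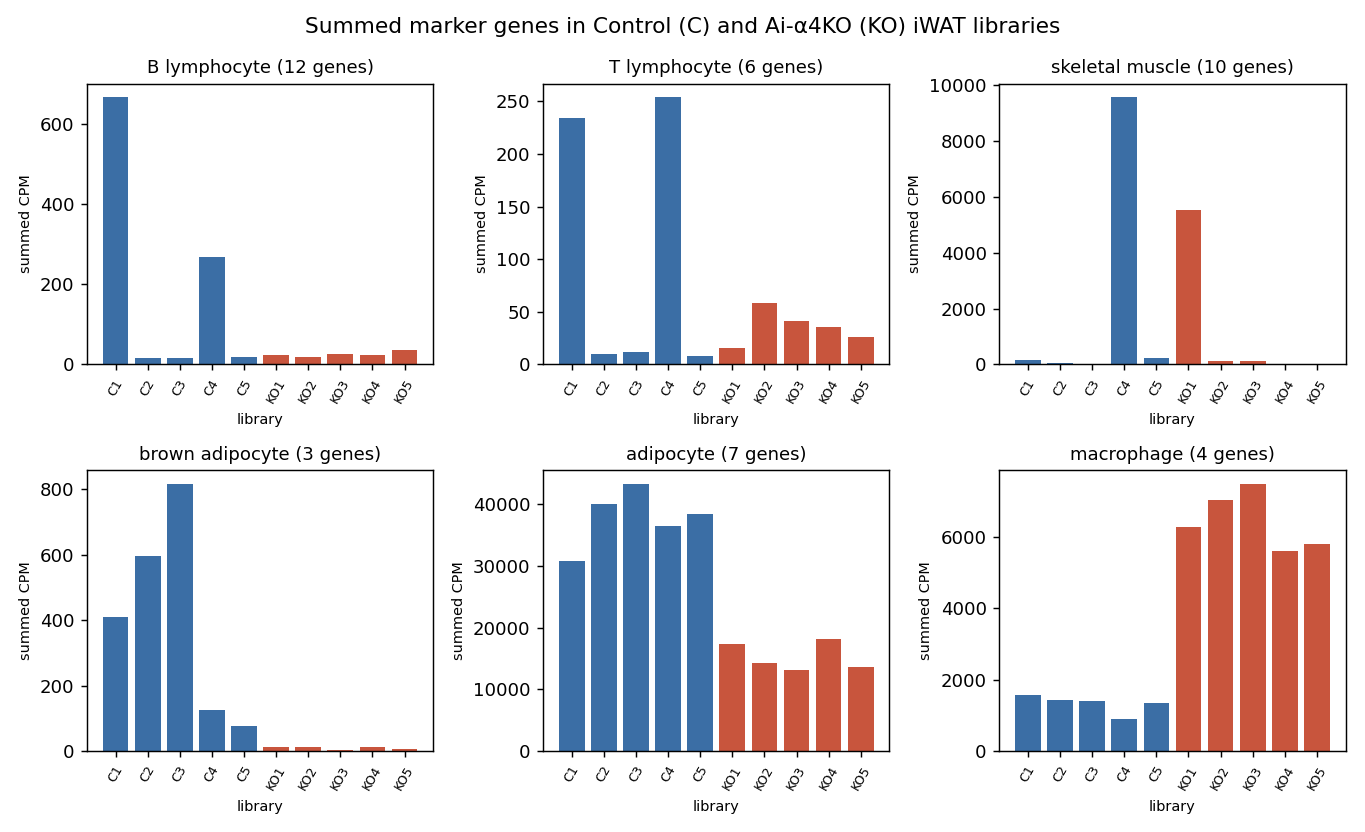
Summed CPM (linear axis) of fixed marker genes in each of the 10 iWAT libraries, 1 panel per cell type, with Control libraries in blue and Ai-α4KO libraries in red. B and T lymphocyte markers are high in Control 1 and Control 4, skeletal muscle markers are high in Control 4 and Ai-α4KO 1, and macrophage markers are higher in every Ai-α4KO library (5597 to 7481 CPM) than in any Control library (890 to 1560 CPM).

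Igbp1, which encodes α4 (Entrez 18518, chromosome X from 100494291 to 100516125 on the plus strand in the deposited mm10 coordinates), was measured at 61.1, 74.2, 81.4, 72.1 and 68.6 CPM in Control libraries and at 11.4, 10.7, 11.7, 11.6 and 11.6 CPM in Ai-α4KO libraries. The groups were far apart, and the Ai-α4KO libraries were close to each other. Igbp1 fell by 2.65 on the log2 scale (SE 0.094, adjusted p = 4.99e-08, by the quasi-likelihood test of edgeR, adjusted after Benjamini-Hochberg, which is used throughout). Of 13 tested genes of α4, its phosphatases and their regulators, only Igbp1 and Ppp2r1b passed the thresholds described next, both downward, as did 10.7% of all genes tested. Ppp2r1b, a scaffold subunit of PP2A, was at 353, 279, 399, 215 and 230.3 CPM in Control and 144, 127, 115, 176 and 138 CPM in Ai-α4KO libraries (log2 fold change -1.08, SE 0.188, adjusted p = 5.92e-04 in edgeR), and its call was lost without Control 3 (log2 fold change -0.99). The catalytic subunit genes were not called, with log2 fold changes of 0.13 for Ppp2ca, 0.27 for Ppp2cb, 0.49 for Ppp4c and 0.46 for Ppp6c. Tiprl, another partner of the catalytic subunits, was at 0.39.

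A gene was called when its adjusted p was below 0.01 and its level differed at least 2-fold. Of 14604 genes tested, 1656 were higher in Ai-α4KO iWAT (11.3%) and 1559 were lower (10.7%). The 2 groups of libraries did not overlap for 5712 genes (39.1%), among them 1588 of those higher and 1452 of those lower. The larger changes were more often upward: 612 genes rose at least 4-fold and 188 at least 8-fold, while 376 fell at least 4-fold and 91 at least 8-fold. On the scale of log2(FPKM + 1), limma called 1388 genes higher and 779 lower, so that 64.1% of the calls were upward against 51.5% in edgeR. Without Control 1, Control 4 and Ai-α4KO 1 there were 1918 calls higher and 1922 lower, and 91.5% of the higher and 94.4% of the lower genes kept their call. No called gene changed direction in any setting tried.

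**Figure D2:**
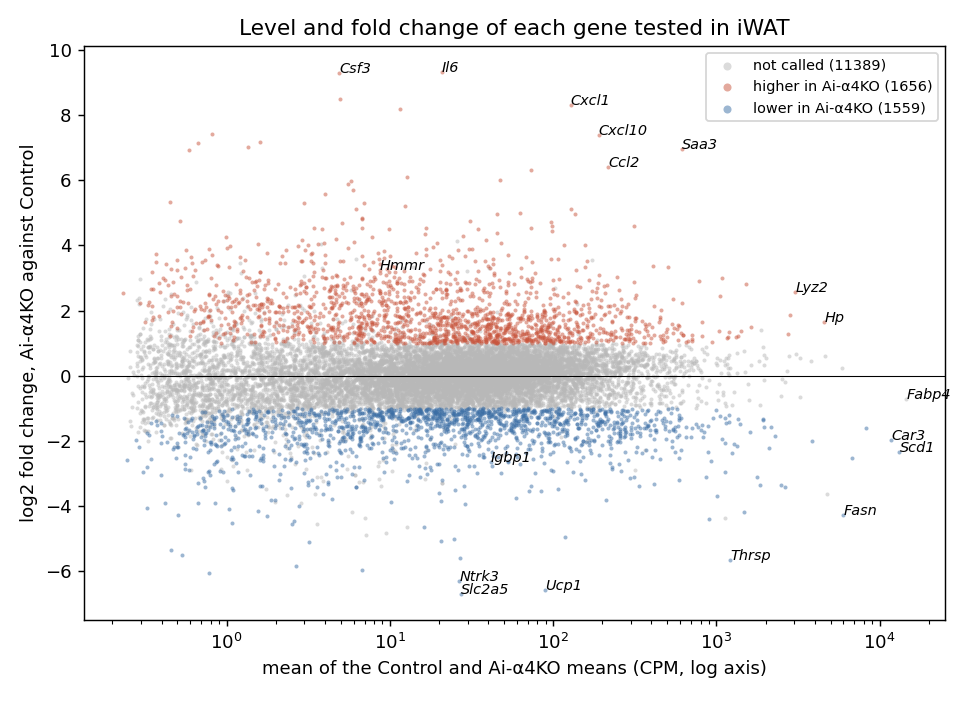
Mean CPM over the 10 iWAT libraries (log axis) against the log2 fold change of Ai-α4KO over Control for the 14604 tested genes, with called genes coloured and a few named. The 1656 genes called higher reach log2 fold changes above 8 at Il6, Csf3 and Cxcl1, and the 1559 genes called lower reach below -6 at Slc2a5, Ucp1 and Ntrk3.

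Among genes with at least 5 CPM in the higher group, the 12 largest rises were those of Il6, Csf3, Csf2, Cxcl1, Sprr1a, Cxcl10, Saa3, Ccl2, Irg1, Gdf15, Cxcl2 and Cxcl3. Sprr1a, an envelope protein of stressed epithelium and injured neurons, was at 0.203, 0, 0, 0.124 and 0 CPM in Control and 15.6, 30.7, 33.1, 19.3 and 16.1 CPM in Ai-α4KO libraries (log2 fold change 8.19, SE 0.684, adjusted p = 5.44e-06 in edgeR), so it was near 0 in every Control library, with counts in Control 1 and Control 4 alone. Without these 2 libraries every Control count was 0, so the size of this fold rests on them. The 12 largest falls were those of Slc2a5, Ucp1, Ntrk3, Rpph1, Tgm3, Thrsp, Acsm3, Slc27a2, Aspg, Cd79a, Cidea and Sorcs2. Ntrk3, the receptor of neurotrophin 3, went from 42.3, 70.3, 104, 29.1 and 16.8 CPM in Control to 0.884, 0.604, 0.777, 0.661 and 0.411 CPM in Ai-α4KO libraries (log2 fold change -6.3, SE 0.53, adjusted p = 5.67e-06 in edgeR). Control libraries differed several-fold among themselves for this gene, and all lay well above the Ai-α4KO libraries. Rpph1, the RNA of ribonuclease P, and Cd79a, a B cell receptor subunit, followed single Control libraries. The log2 fold change of Rpph1 was -5.95, and -2.57 without Control 3, and each of these 2 calls was lost with 7 of the 10 libraries left out in turn. Counted in CPM instead of folds, the largest gains were those of Hp, Lyz2, Tmsb4x, Ccl6 and Actb, and the largest losses those of Scd1, Car3, Fasn, Cfd and Lpl.

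Genes that define the adipocyte were lower almost throughout. Of 25 tested genes of adipocyte identity, 22 fell and 0 rose, with a median log2 fold change of -1.65 against 0.015 over all genes tested. Their share of all counts went from 8.55 ± 0.97% in Control to 3.03 ± 0.5998% in Ai-α4KO libraries (SD, n = 5 each). Adipoq, the hormone adiponectin, whose promoter also drives the Cre transgene, was at 2727, 3479, 3672, 3314 and 4019.6 CPM in Control and 1037, 622, 516, 974 and 569 CPM in Ai-α4KO libraries (log2 fold change -2.21, SE 0.219, adjusted p = 1.38e-05 in edgeR). No Ai-α4KO library reached the lowest Control. Pparg and Cebpa, the transcription factors that hold the adipocyte state, fell by 1.38 and 1.65 on the log2 scale. The secreted factors Cfd (adipsin), Retn (resistin) and Rbp4 fell by 2.52, 1.5 and 2.8. Cfd was at 10447, 12192, 17372, 7846 and 9958 CPM in Control and 3769, 2015, 1209.6, 1699.5 and 1407 CPM in Ai-α4KO libraries, without overlap. The 3 genes that were not called were Fabp4, Cd36 and Lep. Fabp4, the fatty acid carrier that adipocytes share with endothelium and macrophages, was at 13716, 20281, 17861, 20272 and 18294 CPM in Control and 10474, 10206, 10136, 13544 and 10526 CPM in Ai-α4KO libraries (log2 fold change -0.72, SE 0.142, adjusted p = 0.0013 in edgeR). The groups did not overlap, but the change was smaller than 2-fold, and Fabp4 took the largest share of counts in the Ai-α4KO group.

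Fatty acid synthesis had the lowest median of the metabolic lists. Of 22 tested genes, 17 fell and 0 rose (median log2 fold change -2.51), and their share of counts went from 5.01 ± 0.78% to 0.699 ± 0.231% (SD, n = 5 each). Fasn, the fatty acid synthase, was at 13580.0, 11220.0, 13108, 7482 and 11645 CPM in Control and 1184, 659, 298, 623 and 209 CPM in Ai-α4KO libraries (log2 fold change -4.26, SE 0.452, adjusted p = 2.07e-05 in edgeR). Within the Ai-α4KO group, replicates 3 and 5 were lowest and replicate 1 was highest, and all were far below Control 4, the lowest Control. Acaca, which makes malonyl-CoA, was at 2410.0, 3254, 4035, 1871 and 2441 CPM in Control and 232, 181, 96, 178 and 90.9 CPM in Ai-α4KO libraries (log2 fold change -4.17, SE 0.328, adjusted p = 4.08e-06 in edgeR), with replicates 3 and 5 again lowest. Thrsp, a regulator of lipogenesis, was at 1749.9, 2494, 3087, 2243 and 2347 CPM in Control and 97.8, 46.3, 27.8, 44.5 and 22.6 CPM in Ai-α4KO libraries (log2 fold change -5.64, SE 0.421, adjusted p = 3.53e-06 in edgeR), and the groups were widely separated. Acly, Slc25a1 and Acss2, which supply cytosolic acetyl-CoA, fell by 3.36, 3.19 and 3.12 on the log2 scale, and Me1, a source of NADPH, by 3.1. Of the transcription factors that drive these genes, Mlxipl (ChREBP) fell by 2.13 and Srebf1 by 1.59. The desaturases Scd1 and Scd2 fell by 2.34 and 1.07, the second with its call lost without Control 5 or Ai-α4KO 5, while the desaturases of polyunsaturated fatty acids, Fads1 at -0.34 and Fads2 at -0.65, and the elongase Elovl5 at -0.13 were not called. Elovl6 and Elovl3, elongases of saturated and monounsaturated chains, fell by 3.38 and 2.66.

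Genes of triglyceride assembly followed, with 11 of 16 lower and 1 higher (median -1.83). Pck1, the enzyme of glyceroneogenesis, was at 6822, 4569.8, 7279, 2422 and 2999 CPM in Control and 674, 297, 292, 580.0 and 408 CPM in Ai-α4KO libraries (log2 fold change -3.42, SE 0.378, adjusted p = 2.69e-05 in edgeR). Dgat1, Lpin1 and Gpam, which act at successive steps of esterification, fell by 2.02, 2.33 and 1.76. The exception was Gyk, glycerol kinase, at 13, 18.6, 18.6, 11.6 and 10.3 CPM in Control and 38.3, 71.5, 56.4, 53.2 and 66.3 CPM in Ai-α4KO libraries (log2 fold change 1.99, SE 0.214, adjusted p = 2.28e-05 in edgeR), and all 5 Ai-α4KO libraries were above every Control. Of 19 genes of lipolysis and the lipid droplet, 11 fell and 2 rose (median -1.44). The lipases Pnpla2, Lipe and Mgll fell by 2.15, 1.93 and 1.82, and Adrb3, the β3-adrenergic receptor that activates them, by 1.63. The 2 genes that rose were Plin2, the droplet coat protein found in most cell types, and Adra2a, the α2-adrenergic receptor that restrains lipolysis. Plin2 was at 811, 624, 999.7, 521 and 606 CPM in Control and 1772, 1869, 1597, 1318 and 1628 CPM in Ai-α4KO libraries (log2 fold change 1.2, SE 0.182, adjusted p = 2.24e-04 in edgeR), while the adipocyte coat genes Plin1 and Plin4 fell by 1.63 and 1.44. Adra2a was at 1.91, 1.65, 1.2, 1.51 and 1.37 CPM in Control and 7.59, 9.22, 10.9, 11.1 and 13 CPM in Ai-α4KO libraries (log2 fold change 2.75, SE 0.203, adjusted p = 3.45e-06 in edgeR), without overlap.

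Of 19 genes of brown and beige adipocytes, 15 fell and 0 rose (median -2.38), from levels that varied widely among the Control libraries. Ucp1, the uncoupling protein of brown and beige fat (Entrez 22227, chromosome 8 from 83290348 to 83298456 on the plus strand), was at 271, 255, 333, 19.3 and 5.44 CPM in Control and 1.98, 2.68, 0.749, 2.06 and 1.78 CPM in Ai-α4KO libraries (log2 fold change -6.57, SE 1.07, adjusted p = 3.62e-04 in edgeR). Control 1, Control 2 and Control 3 were far above Control 4 and Control 5, and still no Control library was as low as the highest Ai-α4KO library. Cidea, a droplet protein of brown fat, was at 139.7, 341, 483, 108 and 70.8 CPM in Control and 9.85, 9.85, 2.78, 10.7 and 3.72 CPM in Ai-α4KO libraries (log2 fold change -4.95, SE 0.643, adjusted p = 7.73e-05 in edgeR), also without overlap. Cox7a1, a cytochrome oxidase subunit of muscle and brown fat, was at 19.1, 56.3, 83.2, 48.2 and 22.7 CPM in Control and 5.79, 4.01, 3.75, 3.17 and 3.53 CPM in Ai-α4KO libraries (log2 fold change -3.5, SE 0.401, adjusted p = 3.39e-05 in edgeR). Ppargc1a, a coactivator of mitochondrial genes, and Prdm16, a determinant of the brown lineage, fell by 1.998 and 1.35. Lep, the hormone leptin, ran in the other order within the Control group, at 130.2, 351, 56.7, 1071 and 1415 CPM in Control and 131, 90.4, 104, 189 and 106 CPM in Ai-α4KO libraries. Control 4 and Control 5 were highest and Control 3 lay below every Ai-α4KO library, so the groups overlapped and the gene was not called (log2 fold change -2.28, adjusted p = 0.0203 in edgeR), though it was called without Control 1 (-2.599) or Control 3 (-2.63).

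**Figure D3:**
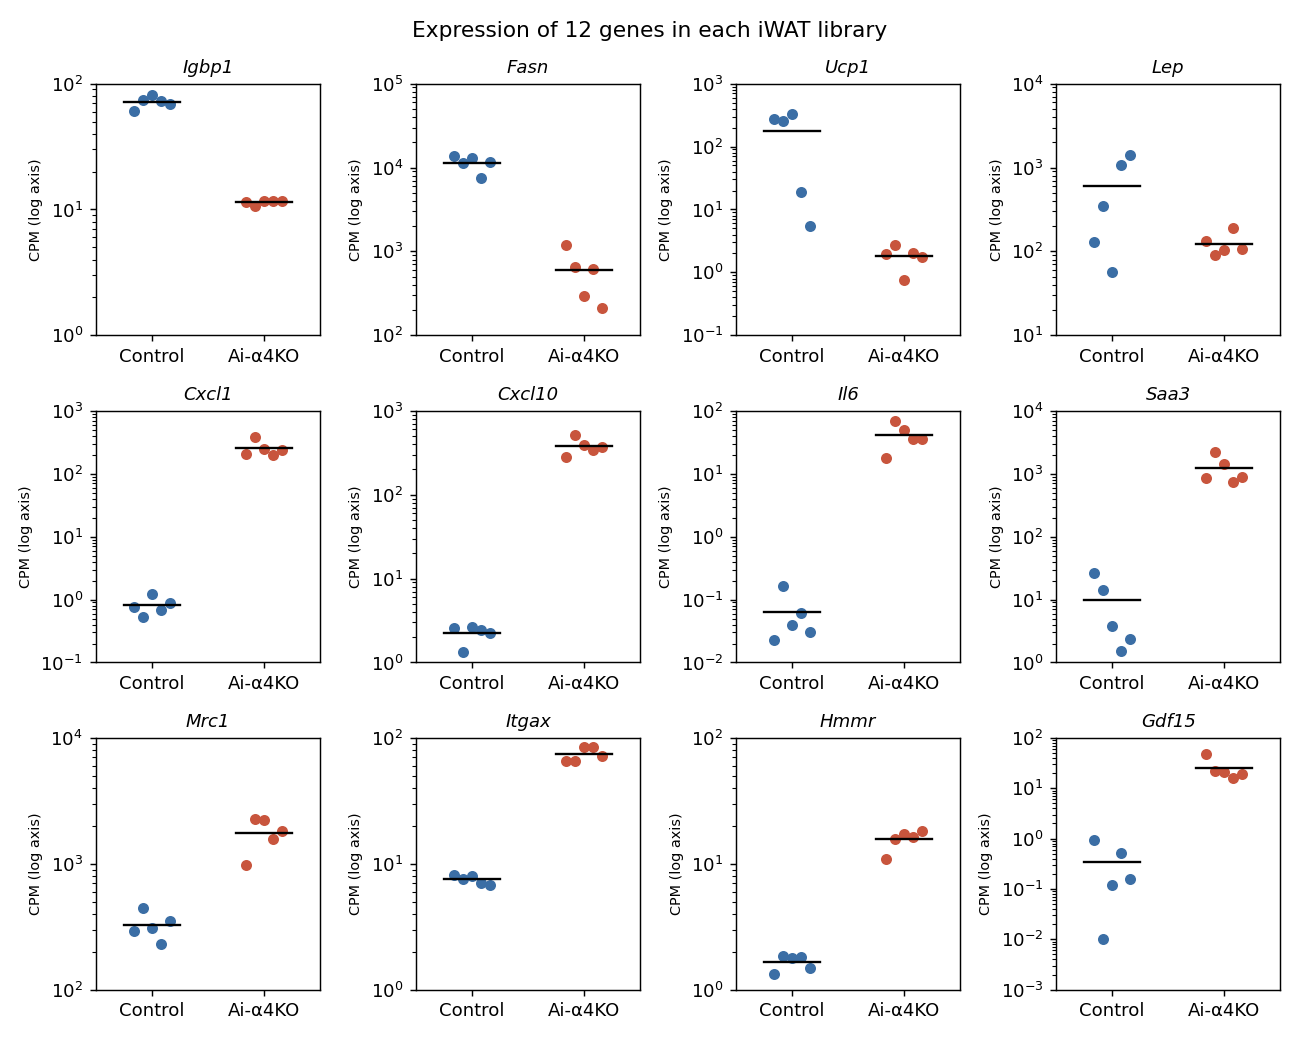
CPM (log axis) of 12 genes in each of the 10 iWAT libraries, with Control points in blue, Ai-α4KO points in red and a bar at the mean of each group of 5. A count of 0 (Gdf15 in Control 2) is drawn at 0.01 CPM. The groups are separate in every panel except Lep, and the Control libraries of Ucp1 range from 5.44 to 333 CPM.

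Mitochondrial fuel pathways were mostly lower, with medians closer to 0 than that of the lipogenic genes. In the citrate cycle and pyruvate entry, 22 of 24 genes fell and 0 rose (median -1.56), as did 19 of 22 genes of branched-chain amino acid breakdown (median -1.52). Ivd, which oxidizes the leucine product isovaleryl-CoA, was at 372, 449, 456, 403 and 522 CPM in Control and 85.3, 64.9, 56.2, 78.3 and 53.3 CPM in Ai-α4KO libraries (log2 fold change -2.7, SE 0.162, adjusted p = 1.86e-06 in edgeR), and it was among the falls with the smallest p. In fatty acid β-oxidation 16 of 20 genes fell (median -1.49) and 1 rose. That gene was Cpt1a, the carnitine palmitoyltransferase of liver and many other cells, at 71.1, 60.05, 59.7, 43.6 and 57.8 CPM in Control and 161, 144, 224, 225 and 223 CPM in Ai-α4KO libraries (log2 fold change 1.74, SE 0.169, adjusted p = 1.26e-05 in edgeR). Every Ai-α4KO library was at least 2-fold above the highest Control, while Cpt1b, the muscle and brown fat form, was at a log2 fold change of -1.09 and was not called. Genes of the mitochondrial ribosome moved much less, with 4 of 76 lower (5.26%, below the 10.7% of all genes tested) and a median of -0.44. That count was 12 without Control 1, Control 4 and Ai-α4KO 1, and 1 with library size scaling. The summed adipocyte markers were lower in the same Ai-α4KO libraries (13113 to 18197 CPM against 30829 to 43257 CPM), and their part in the falls of the lipid and mitochondrial lists was not tested.

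In insulin signaling, 8 of 23 tested genes fell and 2 rose (median -0.33). Slc2a4, the insulin-regulated glucose transporter, was at 361, 389, 416, 391 and 456 CPM in Control and 96.3, 43.8, 37.4, 62.4 and 39.9 CPM in Ai-α4KO libraries (log2 fold change -2.85, SE 0.257, adjusted p = 8.28e-06 in edgeR). The lower genes also included the substrate gene Irs1, the kinase subunit Pik3cb, Akt2, Foxo1 and the phosphodiesterase Pde3b, with log2 fold changes between -1.85 and -1.35. Insr, the receptor itself, was at -0.95, under the 2-fold threshold, and passed it without Control 1 (-1.04) or Ai-α4KO 4 (-1.03). The 2 genes that rose, 8.7% of the list against 11.3% of all genes tested, were Socs3 and Ptpn1, both known to restrain the pathway. Socs3 was at 18.5, 7.09, 11.6, 7.48 and 6.65 CPM in Control and 71.7, 83.8, 73.6, 49.6 and 41.4 CPM in Ai-α4KO libraries (log2 fold change 2.64, SE 0.318, adjusted p = 4.73e-05 in edgeR), and Ptpn1, the tyrosine phosphatase PTP1B, went from 51.5 ± 9.96 to 115 ± 12.2 CPM (SD, n = 5 each; log2 fold change 1.16, SE 0.138, adjusted p = 4.33e-05 in edgeR). Ybx1, which encodes a Y-box transcription factor, was at a log2 fold change of 0.16 and was not called.

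**Figure D4:**
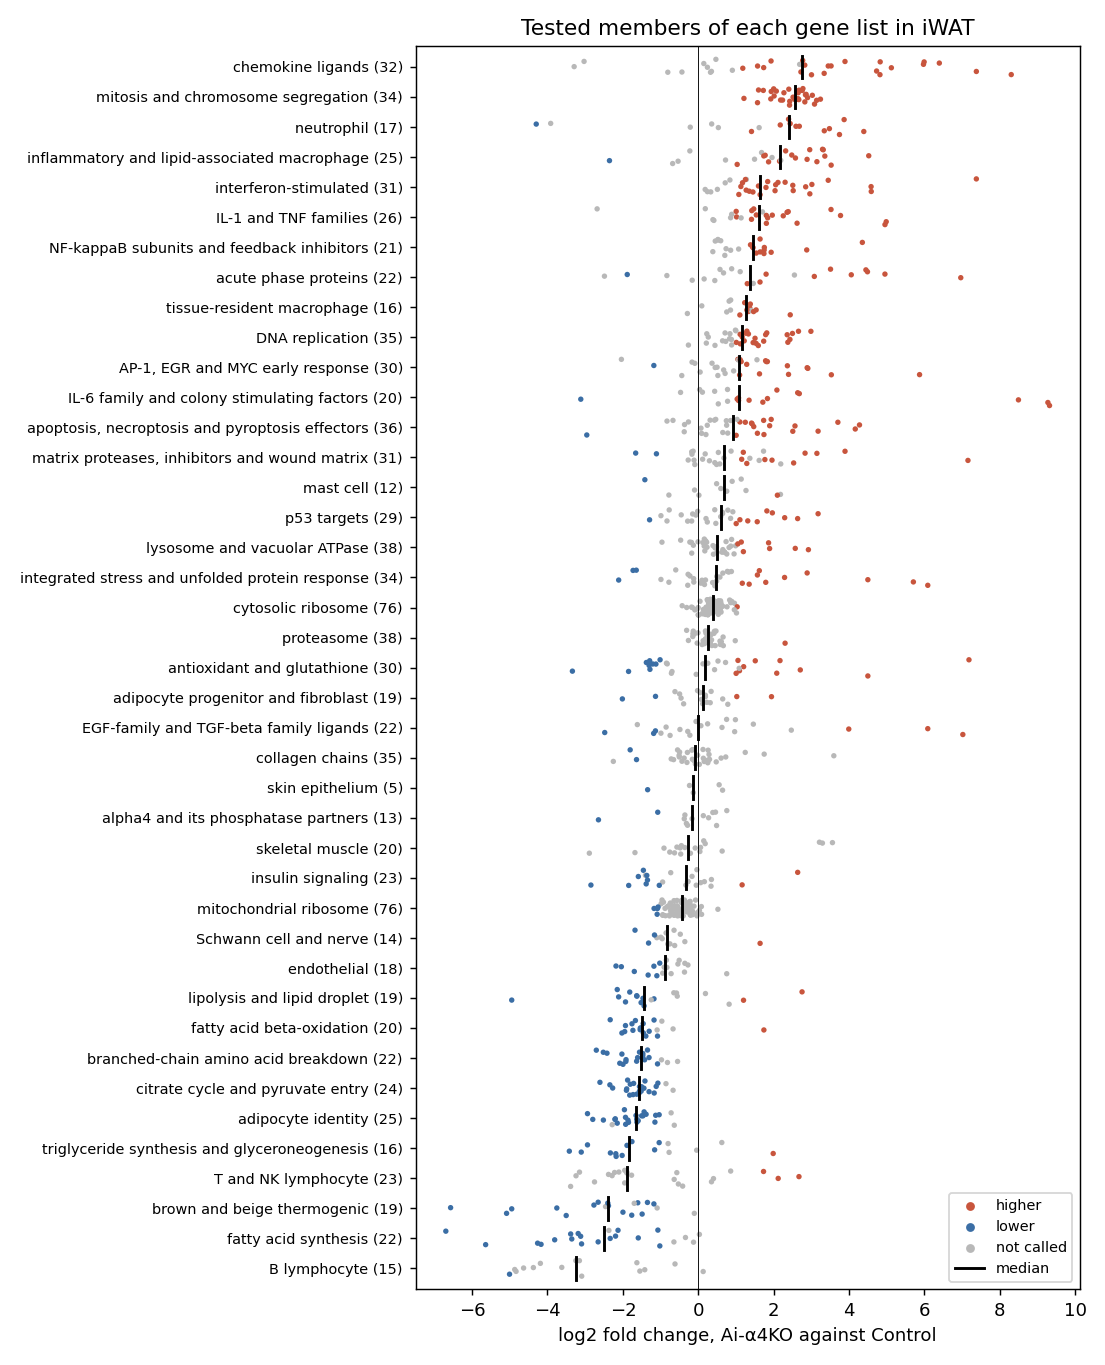
Log2 fold change of every tested member of the gene lists in Ai-α4KO against Control iWAT, 1 row per list, with called members coloured. B lymphocyte genes (median -3.25) and fatty acid synthesis (median -2.51) lie at the low end and chemokine ligands (median 2.75) at the high end, while the cytosolic ribosome and the collagen chains lie near 0.

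Chemokines, the secreted proteins that draw leukocytes into tissue, formed the list with the highest median. Of 32 tested chemokine genes, 21 rose and 0 fell (median 2.75), and together they went from 0.125 ± 0.015% to 0.826 ± 0.193% of all counts (SD, n = 5 each). The promoters of the neutrophil chemokines Cxcl1, Cxcl2 and Cxcl3 and of the cytokine Il6 are shown because these 4 genes are among the 12 largest rises and each holds a κB element, the kind of site that NF-κB binds. The sequences are the 250 bases before the annotated start from RefSeq (GRCm38.p6), 5′ to 3′ on the gene's strand, with the match to GGGANTTTC or its reverse complement in capitals.
Cxcl1, chr5:90890995-90891244, plus strand: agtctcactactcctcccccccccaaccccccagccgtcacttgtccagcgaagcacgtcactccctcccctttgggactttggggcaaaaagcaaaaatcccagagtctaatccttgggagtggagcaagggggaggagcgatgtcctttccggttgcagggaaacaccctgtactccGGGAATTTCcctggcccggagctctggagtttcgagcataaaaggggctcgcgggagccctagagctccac
Cxcl2, chr5:90903649-90903898, plus strand: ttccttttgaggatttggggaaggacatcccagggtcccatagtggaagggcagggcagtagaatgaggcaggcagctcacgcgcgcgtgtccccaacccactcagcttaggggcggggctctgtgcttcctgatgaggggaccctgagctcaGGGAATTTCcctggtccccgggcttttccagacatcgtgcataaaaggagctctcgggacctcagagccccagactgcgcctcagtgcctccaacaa
Cxcl3, chr5:90785851-90786100, plus strand: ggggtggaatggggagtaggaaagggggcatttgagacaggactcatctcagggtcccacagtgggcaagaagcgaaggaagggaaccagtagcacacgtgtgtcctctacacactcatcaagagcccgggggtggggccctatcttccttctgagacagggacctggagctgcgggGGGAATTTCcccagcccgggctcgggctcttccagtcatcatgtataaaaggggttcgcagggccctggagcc
Il6, chr5:30012864-30013113, plus strand: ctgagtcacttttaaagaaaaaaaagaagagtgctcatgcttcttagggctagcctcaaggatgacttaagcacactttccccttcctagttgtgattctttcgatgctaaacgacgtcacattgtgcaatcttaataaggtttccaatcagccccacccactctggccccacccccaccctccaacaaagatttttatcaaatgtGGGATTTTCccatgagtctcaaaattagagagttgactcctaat
The match began 71 bases before the start in Cxcl1, 97 in Cxcl2, 73 in Cxcl3 and 44 in Il6. In windows from 250 bases before to 50 bases after the start, this element stood in 4 of the 23 chemokine genes with a promoter in the table (17.4%), in 2.75% of 1237 genes called higher, in 0.953% of 1154 called lower, in 1.25% of genes tested and in 1.29% of all 27025 promoters. The match describes letters and not binding.

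Cxcl1, a ligand of the neutrophil receptor CXCR2, was at 0.766, 0.528, 1.24, 0.68 and 0.87 CPM in Control and 205, 388, 251, 197 and 240.3 CPM in Ai-α4KO libraries (log2 fold change 8.3, SE 0.305, adjusted p = 5.36e-08 in edgeR). Every Control library was close to 1 CPM, and Ai-α4KO 2 was highest. Cxcl2 was at 0.541, 4.19, 0.519, 0.402 and 1.68 CPM in Control and 70.9, 136, 96.3, 71.9 and 88.1 CPM in Ai-α4KO libraries (log2 fold change 5.99, SE 0.632, adjusted p = 1.99e-05 in edgeR), with Control 2 the highest of its group and far below every Ai-α4KO library. The log2 fold change of Cxcl2 was 6.88 without Control 2 and 5.35 without Control 1 and Control 4. Ccl2 and Ccl7, which recruit monocytes through CCR2, are the next pair. Ccl2 was at 4.17, 5.05, 7.06, 4.26 and 5.13 CPM in Control and 303, 562, 449, 357 and 484 CPM in Ai-α4KO libraries (log2 fold change 6.39, SE 0.241, adjusted p = 5.74e-08 in edgeR), and Ccl7 rose by 4.73 on the log2 scale (SE 0.19). Cxcl10, an interferon-induced ligand of CXCR3, was at 2.61, 1.35, 2.67, 2.44 and 2.27 CPM in Control and 282, 510.4, 386, 342 and 369 CPM in Ai-α4KO libraries (log2 fold change 7.38, SE 0.255, adjusted p = 4.99e-08 in edgeR), among the rises with the smallest p. Cxcl9, which shares that receptor, was at a log2 fold change of 0.24 and was not called. Ccl19 and Ccl21a, chemokines of lymph nodes, were at -3.03 and -3.29 and were not called, with Control 1 and Control 4 far above the other 8 libraries for both. Among chemokines abundant in Control tissue, Ccl6 rose by 2.83, Ccl9 by 3.003 and Cxcl12 by 1.18. Without Control 1, Control 4 and Ai-α4KO 1, 23 of the 32 genes were called higher.

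Cytokines rose with them. Il6 was at 0.0225, 0.165, 0.0399, 0.0618 and 0.0311 CPM in Control and 18.1, 67.7, 49.2, 36.2 and 35.8 CPM in Ai-α4KO libraries (log2 fold change 9.32, SE 0.523, adjusted p = 1.68e-06 in edgeR, and 9.99 without Control 2), from near 0 to a level at which Ai-α4KO 1 was lowest and Ai-α4KO 2 highest. Csf3 and Csf2, the granulocyte and granulocyte-macrophage colony stimulating factors, had at most 2 counts in any Control library. Over the summed counts of each group, Csf3 was 807-fold (95% counting interval 223 to 6669) higher and Csf2 414-fold (95% counting interval 161 to 1520.2) higher in Ai-α4KO iWAT, with intervals that cover counting error only. Among the Controls, Csf3 had counts in Control 2 alone, so the size of its fold rests on that library. The log2 fold change of Csf3 was 9.27, and 11.5 without Control 2 and 8.46 without Control 1 and Control 4. In the list of the IL-6 family and colony stimulating factors, 12 of 20 genes rose and 1 fell. The one that fell was Ctf1, cardiotrophin 1, at 5.86, 8.67, 9.34, 10.4 and 8.27 CPM in Control and 2.01, 0.845, 0.722, 0.604 and 0.739 CPM in Ai-α4KO libraries (log2 fold change -3.12, SE 0.349, adjusted p = 2.97e-05 in edgeR). The receptors Csf3r and Csf2rb rose by 2.68 and 1.84. Csf1r was called at 1.03 with all 10 libraries and not without Control 4 (0.87), Ai-α4KO 3 (0.998), Control 1 and Control 4 (0.84) or Control 4 and Ai-α4KO 1 (0.875), and the shared signaling subunit Il6st was at 0.11 and was not called.

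In the IL-1 and TNF families 18 of 26 genes rose and 0 fell (median 1.62). Il1b was at 1.51, 3.76, 2.39, 1.67 and 4.91 CPM in Control and 43.3, 161, 107, 66.1 and 62.2 CPM in Ai-α4KO libraries (log2 fold change 4.95, SE 0.466, adjusted p = 1.05e-05 in edgeR). Il1rn, the receptor antagonist that opposes it, was at 3.4, 4.55, 3.07, 2.5 and 5.59 CPM in Control and 79.7, 200.1, 148, 92.1 and 86.2 CPM in Ai-α4KO libraries (log2 fold change 4.99, SE 0.34, adjusted p = 2.53e-06 in edgeR), and for both genes Ai-α4KO 2 was highest and Ai-α4KO 1 lowest. The inflammasome genes Nlrp3 and Casp1 rose by 3.77 and 1.47, and the alarmin Il33 by 1.96. Tnf was at 3.72, 0.89, 0.439, 3.24 and 0.995 CPM in Control and 7.83, 11, 10.9, 8.89 and 6.11 CPM in Ai-α4KO libraries (log2 fold change 2.25, SE 0.518, adjusted p = 0.00344 in edgeR), with Control 1 and Control 4 highest of their group, and its log2 fold change was 3.43 without them. Of 21 NF-κB subunits, sensors and feedback inhibitors, 12 rose and 0 fell (median 1.44). The feedback inhibitors Tnip3, Nfkbie and Tnfaip3 rose by 4.35, 1.93 and 1.44, and the receptors Tlr2 and Tlr4 by 2.88 and 1.45. The subunit gene Rel rose by 1.54, whereas Rela at 0.45 and Nfkbia at 0.39 were not called.

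**Figure D5:**
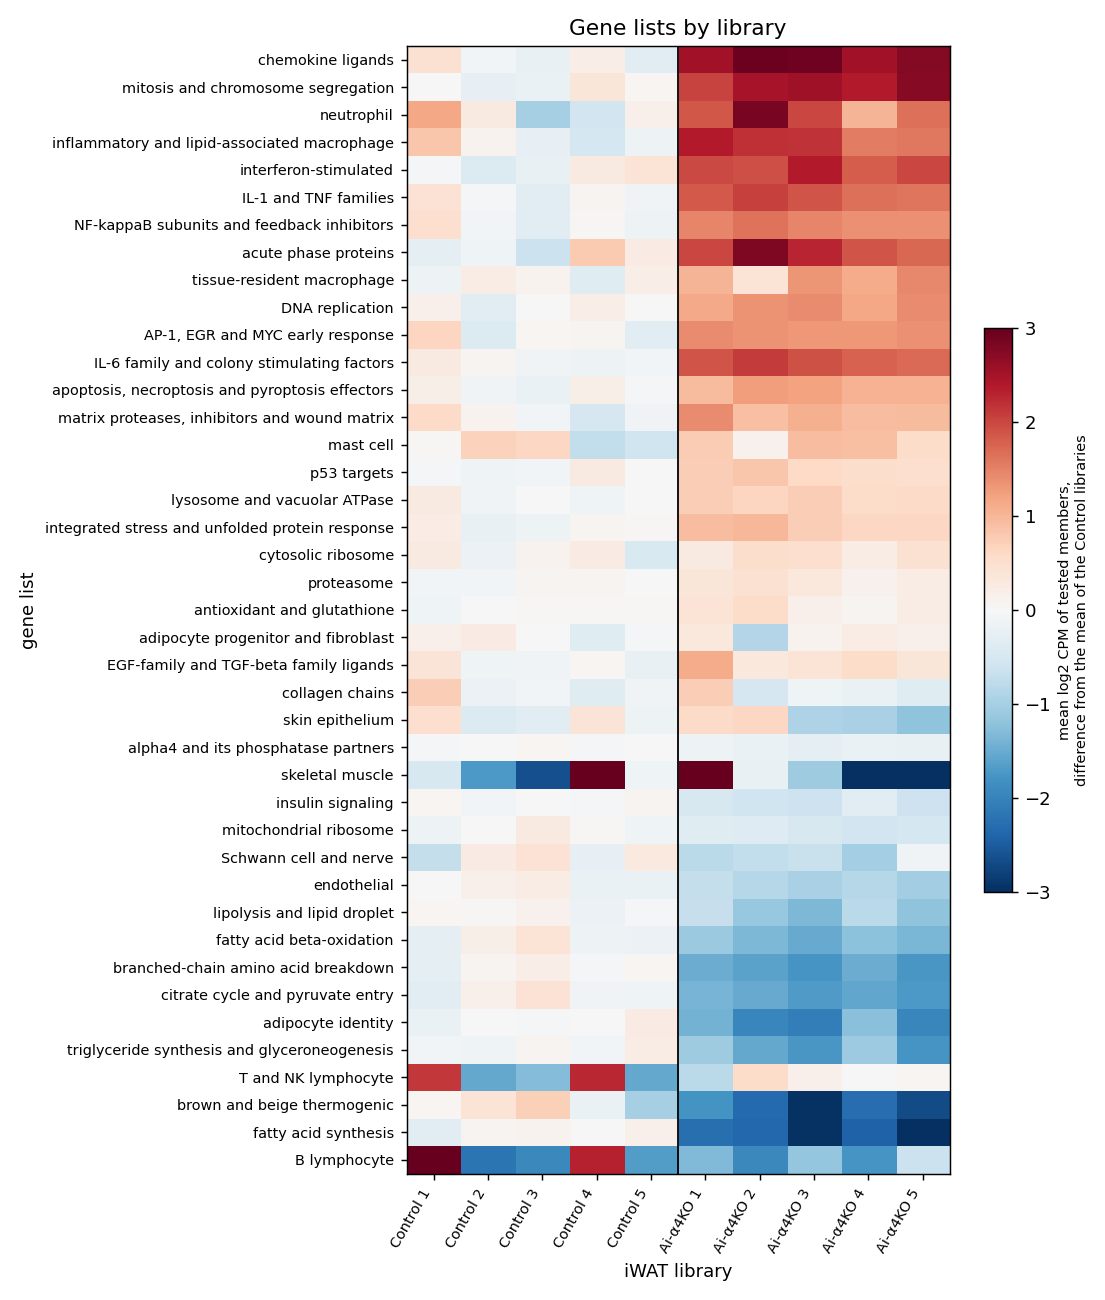
Difference of the mean log2 CPM of each gene list from its mean over the 5 Control iWAT libraries, 1 column per library, with colours ending at 3 log2 units either way. Metabolic lists are higher in every Control library than in any Ai-α4KO library and chemokine, cytokine, macrophage, interferon and cell cycle lists lower, the neutrophil list overlaps through Control 1, and the B lymphocyte, T lymphocyte and skeletal muscle lists follow Control 1, Control 4 and Ai-α4KO 1.

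Acute phase proteins, best known from the inflamed liver, rose in 10 of 22 cases and fell in 1. Saa3, the serum amyloid A of fat and macrophages, was at 26.6, 14.4, 3.79, 1.55 and 2.33 CPM in Control and 847, 2213, 1405, 749.6 and 892 CPM in Ai-α4KO libraries (log2 fold change 6.96, SE 0.885, adjusted p = 6.74e-05 in edgeR), with Control 1 and Control 2 above the other Controls and a log2 fold change of 7.72 without Control 1. Hp, haptoglobin, was at 2124, 3024, 3004, 1363 and 1624 CPM in Control and 7365, 9450.1, 5886, 7275 and 4688 CPM in Ai-α4KO libraries (log2 fold change 1.64, SE 0.261, adjusted p = 3.19e-04 in edgeR), and it had the largest gain in CPM among called genes. Lcn2, an iron-binding lipocalin, was at 19.6, 7.32, 2.95, 7.2 and 5.31 CPM in Control and 134, 566, 289, 178 and 151 CPM in Ai-α4KO libraries (log2 fold change 4.95, SE 0.603, adjusted p = 5.06e-05 in edgeR), with a log2 fold change of 5.58 without Control 1 and Control 4. Ptx3, Hpx and Lbp also rose, by 4.45, 4.06 and 1.8. The call of Hpx was lost without Control 5, Ai-α4KO 2 or Ai-α4KO 3, at log2 fold changes of 3.78 to 4.26. C3 and Orm1 were at 0.16 and -0.83 and were not called. The gene that fell was Orm3, at 2.52, 4.32, 3.47, 16.3 and 14.7 CPM in Control and 2.01, 2.51, 1.94, 1.79 and 2.93 CPM in Ai-α4KO libraries, where only Control 4 and Control 5 stood above the rest, and its call was lost with 7 of the 10 libraries left out in turn, both of these among them. The Saa, Orm and Serpina3 genes are families of similar sequence, and how shared reads were divided among their members is not given in the sources used here.

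Macrophage genes rose from both ends of the macrophage spectrum. Of 25 genes of inflammatory and lipid-associated macrophages, 16 rose and 1 fell (median 2.16), and of 16 genes of tissue-resident macrophages 9 rose and 0 fell (median 1.26). Itgax, CD11c, was at 8.2, 7.62, 7.94, 7.02 and 6.78 CPM in Control and 65.7, 66.1, 84.1, 85.5 and 72.4 CPM in Ai-α4KO libraries (log2 fold change 3.32, SE 0.115, adjusted p = 4.99e-08 in edgeR), with little spread within either group. Mrc1, the mannose receptor CD206, was at 292, 449.6, 311, 233 and 349 CPM in Control and 988, 2266, 2216, 1582 and 1816 CPM in Ai-α4KO libraries (log2 fold change 2.44, SE 0.247, adjusted p = 1.60e-05 in edgeR). Ccr2, the receptor of CCL2 on monocytes, was at 46, 106, 82.5, 59.2 and 68.3 CPM in Control and 347, 682, 1012, 706 and 959 CPM in Ai-α4KO libraries (log2 fold change 3.36, SE 0.317, adjusted p = 1.07e-05 in edgeR), lowest in Ai-α4KO 1. Lyz2, lysozyme, rose by 2.58, and Irg1, which makes itaconate, by 6.31. Nos2, the inducible nitric oxide synthase, was the gene that fell, at 9.1, 3.46, 4.27, 4.11 and 5.1 CPM in Control and 1.34, 0.99, 0.777, 1.42 and 0.548 CPM in Ai-α4KO libraries (log2 fold change -2.36, SE 0.348, adjusted p = 1.88e-04 in edgeR). Some markers of lipid-laden macrophages followed single libraries and were not called. Spp1 was at 164, 38.7, 20.5, 6.27 and 23.5 CPM in Control and 828, 178, 88.3, 33.2 and 25.6 CPM in Ai-α4KO libraries, and Gpnmb at 238, 16.9, 16.3, 6.4 and 10.6 and 127, 38.8, 29.3, 27.9 and 24 CPM, both high in Ai-α4KO 1 and in Control 1. The log2 fold change of Spp1 was 2.19, and 0.396 without Control 4 and Ai-α4KO 1, while that of Gpnmb was -0.22, and 1.69 without Control 1 and Control 4, again with neither called. The sum of 4 fixed macrophage markers was 890 to 1560 CPM in Control and 5597 to 7481 CPM in Ai-α4KO libraries, and that of 3 neutrophil markers 12.5 to 70.4 CPM and 103 to 396 CPM. The part of these cells in the rises of chemokine, cytokine, acute phase and interferon genes was not tested.

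Neutrophil genes rose in 11 of 17 cases and fell in 1 (median 2.39). Clec4e, an activating receptor of neutrophils and macrophages, was at 1.71, 10.2, 1.44, 1.7 and 5.59 CPM in Control and 75.2, 156, 100, 43.5 and 57 CPM in Ai-α4KO libraries (log2 fold change 4.39, SE 0.623, adjusted p = 1.46e-04 in edgeR), and its log2 fold change was 5.04 without Control 2, the highest Control. S100a8, S100a9 and Cxcr2, which mark the circulating cell, rose by 2.59, 2.39 and 2.44. Among granule genes of neutrophil precursors, Elane was the gene that fell (-4.3), and Ngp at -3.92 and Ltf at -0.21 were not called. Without Control 1 and Control 4, Ngp was at 0.0072 and Ltf at 4.53, again not called. Elane was at 11.1, 1.25, 1.64, 1.36 and 1.59 CPM in Control, highest in Control 1, and 0.366, 0.241, 0.0833, 0.113 and 0.0548 CPM in Ai-α4KO libraries, and its log2 fold change was -3.19 without Control 1 and Control 4. Among 12 mast cell genes, 1 was called in each direction (8.33%, below the shares of all genes tested). Hdc, the histamine-forming enzyme, rose by 2.1 and Kit, the stem cell factor receptor, fell by 1.42, while the proteases Cpa3 at 0.899, Mcpt4 at 0.597 and Tpsb2 at -0.098 were not called.

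The lymphocyte lists depended on the libraries with lymph node markers. With all 10 libraries, the 15 B lymphocyte genes had a median of -3.25 and 1 was called, Cd79a, lower. Cd79a was at 170.2, 1.95, 2.39, 63.4 and 2.3 CPM in Control and 2.62, 0.362, 2.25, 0.68 and 1.67 CPM in Ai-α4KO libraries, so that only Control 1 and Control 4 stood out. Its log2 fold change went from -5.01 to -0.63 without those 2 libraries, where it was not called. The median of the list was then 0.33, and 4 genes, Cd22, Fcrla, Spib and Cd37, were called higher. The 23 T and NK lymphocyte genes had a median of -1.89 with 3 called higher, Gzmb, Ncr1 and Klrb1c, a share of 13.04% against 11.3% of all genes tested. Nkg7 at -0.64 and Prf1 at -0.41, which like these 3 belong to cytotoxic or natural killer cells, were not called, and without Control 1 and Control 4 Nkg7 was called higher (1.41) and Prf1 at 0.93 was not. Gzmb, granzyme B, was at 0.653, 0.594, 0.479, 0.494 and 0.435 CPM in Control and 2.83, 4.37, 3.91, 3.55 and 2.38 CPM in Ai-α4KO libraries (log2 fold change 2.67, SE 0.246, adjusted p = 9.29e-06 in edgeR). Without Control 1 and Control 4 the median was 1.41 and 9 genes were called higher, among them Cd4, Cd2 and Tcf7. The 20 skeletal muscle genes had a median of -0.28 with 0 called. The median was -0.46 without Control 4 and Ai-α4KO 1, the 2 libraries with muscle markers, where 1 gene, Ryr1, was called higher, and 3.65 without Control 1 and Control 4, which leaves Ai-α4KO 1 in. A direction of the B lymphocyte, T lymphocyte or muscle lists cannot therefore be told apart from which libraries held lymphocyte or muscle markers.

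Of 31 interferon-stimulated genes, 24 rose and 0 fell (median 1.64), and 25 were called higher without Control 1, Control 4 and Ai-α4KO 1. Promoters of the antiviral genes Ifit1 and Isg15 are shown for the interferon-stimulated response element they share, and matches to GAAANNGAA on either strand, some of which overlap each other, are in capitals.
Ifit1, chr19:34640639-34640888, plus strand: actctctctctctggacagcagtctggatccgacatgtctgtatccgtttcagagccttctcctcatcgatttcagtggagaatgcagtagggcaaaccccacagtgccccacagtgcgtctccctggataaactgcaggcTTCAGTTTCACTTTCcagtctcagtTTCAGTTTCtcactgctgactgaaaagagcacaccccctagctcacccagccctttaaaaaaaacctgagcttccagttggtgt
Isg15, chr4:156200819-156201068, minus strand: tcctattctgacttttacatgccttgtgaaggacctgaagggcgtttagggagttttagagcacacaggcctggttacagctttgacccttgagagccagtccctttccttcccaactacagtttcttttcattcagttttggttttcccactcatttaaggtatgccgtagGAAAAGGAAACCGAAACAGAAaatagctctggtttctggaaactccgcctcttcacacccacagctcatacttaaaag
The matches began 109, 103 and 84 bases before the start in Ifit1 and 78, 72 and 66 in Isg15. The element stood in 16 of the 24 listed genes with a promoter in the table (66.7%), in 13.7% of genes called higher, in 7.02% of those called lower, in 8.92% of genes tested and in 9.76% of all promoters. Ifit1, which binds foreign RNA, was at 16.2, 16.6, 13.1, 36.7 and 41.1 CPM in Control and 144, 191, 282, 159 and 186 CPM in Ai-α4KO libraries (log2 fold change 2.96, SE 0.353, adjusted p = 4.39e-05 in edgeR), and Isg15, a ubiquitin-like modifier, at 13.7, 9.69, 11.5, 20.1 and 26.7 and 136, 161, 153, 101 and 109 CPM (log2 fold change 3.01, SE 0.282, adjusted p = 1.01e-05 in edgeR). For both genes Control 4 and Control 5 were the highest Controls. Rsad2, viperin, was at 17.7, 25.6, 25.9, 25.9 and 31 CPM in Control and 344, 807, 769.7, 553 and 549 CPM in Ai-α4KO libraries (log2 fold change 4.58, SE 0.26, adjusted p = 1.68e-06 in edgeR), lowest in Ai-α4KO 1. Oasl1 and Mx1 rose by 4.59 and 2.85, and the transcription factors Irf7 and Stat2 by 1.27 and 1.17. Irf1, which also carries the response to interferon-γ, was at 0.33 and was not called.

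Cell division genes rose together. All 34 tested genes of mitosis and chromosome segregation were called higher (median 2.56, range 1.21 to 3.24), and the 34 calls remained in each scaling and without the 3 libraries. In DNA replication 21 of 35 rose and 0 fell (median 1.16). Promoters of Ccnb2 and Cdk1, the cyclin and kinase that start mitosis, are shown for the CCAAT box and the cell cycle homology element TTTGAA that mark late cell cycle genes, both searched on either strand and in capitals.
Ccnb2, chr9:70421555-70421804, minus strand: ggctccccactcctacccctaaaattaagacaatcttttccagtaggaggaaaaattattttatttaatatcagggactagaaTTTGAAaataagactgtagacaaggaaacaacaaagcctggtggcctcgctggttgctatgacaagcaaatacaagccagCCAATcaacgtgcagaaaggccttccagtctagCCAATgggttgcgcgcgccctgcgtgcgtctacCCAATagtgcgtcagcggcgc
Cdk1, chr10:69352913-69353162, minus strand: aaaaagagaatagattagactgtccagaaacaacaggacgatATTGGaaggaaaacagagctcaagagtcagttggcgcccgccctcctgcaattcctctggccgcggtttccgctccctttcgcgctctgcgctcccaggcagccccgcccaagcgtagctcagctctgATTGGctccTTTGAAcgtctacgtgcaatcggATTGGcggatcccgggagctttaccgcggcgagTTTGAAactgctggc
CCAAT or its reverse complement stood at 87, 54 and 21 bases before the start of Ccnb2 and at 208, 80 and 48 in Cdk1, and TTTGAA at 167 in Ccnb2 and at 71 and 15 in Cdk1. Of 30 mitosis genes with a promoter, 22 held TTTGAA (73.3%) and 22 CCAAT, against 14.4% and 42.6% of genes tested and 20.2% and 41.1% of all promoters. Ccnb2 was at 3.18, 2.84, 2.55, 3.09 and 2.61 CPM in Control and 15, 15.6, 16.8, 18.7 and 23.5 CPM in Ai-α4KO libraries (log2 fold change 2.65, SE 0.162, adjusted p = 1.86e-06 in edgeR), and Cdk1 at 4.5, 5.51, 5.67, 10.2 and 8.92 and 30.5, 39.7, 42.2, 31.6 and 42.4 CPM (log2 fold change 2.42, SE 0.232, adjusted p = 1.17e-05 in edgeR). Mki67, the proliferation antigen Ki-67, was at 21.7, 16.3, 15.3, 26.7 and 21.5 CPM in Control and 85.5, 169, 159, 143 and 174 CPM in Ai-α4KO libraries (log2 fold change 2.84, SE 0.22, adjusted p = 3.87e-06 in edgeR), lowest in Ai-α4KO 1. Hmmr, a spindle protein, had the largest rise of the list at 3.24. Among replication genes, Rrm2 and Tk1, which supply nucleotides, rose by 2.66 and 2.43, while Mcm7 at 0.27, Orc6 at 0.21 and Ccne1 at 0.44 were not called. Markers of macrophages were higher in the same libraries (4 genes, 5597 to 7481 CPM against 890 to 1560 CPM), and their part in the rise of these genes was not tested.

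Of 34 genes of the integrated stress and unfolded protein responses, 10 rose and 3 fell (median 0.46), which is 29.4% higher and 8.82% lower against 11.3% and 10.7% of all genes tested. Their summed share of counts was 0.272 to 0.2902% in Control and 0.37998 to 0.528% in Ai-α4KO libraries, without overlap. The secreted stress hormones Gdf15 and Fgf21 had the largest rises. Gdf15 was at 0.923, 0, 0.12, 0.525 and 0.155 CPM in Control and 47.6, 22.6, 20.8, 15.9 and 18.9 CPM in Ai-α4KO libraries (log2 fold change 6.09, SE 0.732, adjusted p = 4.67e-05 in edgeR), highest in Ai-α4KO 1, and its log2 fold change was 7.98 without Control 1 and Control 4. Fgf21 was at 0.135, 0.231, 0.0798, 0.34 and 0.311 and 14.9, 16.3, 11.5, 7.04 and 8.54 CPM (log2 fold change 5.71, SE 0.408, adjusted p = 3.18e-06 in edgeR). Slc7a11, the cystine importer, rose by 4.5 and Atf3 by 2.89, whereas Ddit3 at 0.098, Trib3 at -0.27, Chac1 at 0.19 and Asns at -0.78, standard targets of ATF4, were not called. Phgdh, the first enzyme of serine synthesis, fell by 2.11 and Vldlr by 1.73. The chaperone gene Hspa5 rose by 1.35. Of 29 p53 targets, 9 rose and 1 fell, which is 31% and 3.45% against 11.3% and 10.7% of all genes tested. Cdkn1a, the cell cycle inhibitor p21, was at 87.5, 99.5, 116, 49.2 and 54.3 CPM in Control and 291, 313, 232, 186 and 179.5 CPM in Ai-α4KO libraries (log2 fold change 1.56, SE 0.261, adjusted p = 4.35e-04 in edgeR), and Pmaip1, NOXA, rose by 3.18. Phlda3 fell by 1.29, a call lost with 5 of the 10 libraries left out in turn, among them Control 4 (-1.13) and Control 5 (-1.1). Ccng1 at 0.44 was not called.

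In the immediate early response 15 of 30 genes rose and 1, Nr4a2, fell (-1.18; list median 1.08). Fosl1, an AP-1 subunit of migrating and dividing cells, was at 0.631, 0.066, 0, 0.0309 and 0.0932 CPM in Control and 11.7, 15.5, 9.63, 7.65 and 9.77 CPM in Ai-α4KO libraries (log2 fold change 5.87, SE 0.767, adjusted p = 8.02e-05 in edgeR), with a log2 fold change of 7.43 without Control 1 and Control 4. Egr2 rose by 2.39. An AP-1 element, TGANTCA, stood in the promoters of 12.1% of genes called higher, 5.81% of those called lower, 6.71% of all genes tested and 8.97% of all promoters, and in 0 of the 24 early response genes with a promoter in the table. Antioxidant genes divided, with 10 of 30 higher and 9 lower, which is 33.3% and 30% against 11.3% and 10.7% of all genes tested. Higher were genes of the oxidant response such as Hmox1 (2.17), Srxn1 (2.71) and Nqo1 (2.08), and lower were Tkt of the pentose phosphate pathway (-3.34), Gpx3 (-1.85), Sod1 (-1.38) and catalase, Cat (-1.29). Gsta1 had at most 1 count in any Control library and was 177-fold (95% counting interval 60.2 to 859) higher over summed counts, with the caution that glutathione transferases resemble each other.

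Of 36 effectors and inhibitors of cell death, 17 rose and 1 fell (median 0.93). Casp4, which starts pyroptosis in mice under the older name caspase 11, was at 9.96, 11.5, 10.9, 13.5 and 10.8 CPM in Control and 44.7, 84.7, 81.9, 53.6 and 70.7 CPM in Ai-α4KO libraries (log2 fold change 2.57, SE 0.185, adjusted p = 3.18e-06 in edgeR). Apaf1, Casp8 and Bcl2l11, which promote apoptosis, rose by 1.89, 1.41 and 1.43, and Ripk3, Mlkl and Zbp1, of necroptosis, by 1.93, 1.73 and 2.51. The survival genes Mcl1 and Birc3 rose by 1.25 and 1.74, and Bcl2a1d, 1 of 3 near-identical copies tested, by 4.16. Casp9 and Bcl2 were at 0.09 and -0.26 and were not called. The gene that fell, Hrk, was below 1 CPM in every library.

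Of 22 EGF-family and TGF-β family ligands, Nrg1, Gdf15 and Gdf3 rose and Nrg4, Bmp6 and Gdf10 fell, which is 13.6% in each direction against 11.3% and 10.7% of all genes tested, and 6 genes were called higher without Control 1 and Control 4. Nrg4, a neuregulin that adipocytes release, was at 41.1, 61.5, 84.2, 96.2 and 105 CPM in Control and 12.3, 11.7, 9.38, 23.1 and 12.8 CPM in Ai-α4KO libraries (log2 fold change -2.48, SE 0.2998, adjusted p = 4.80e-05 in edgeR). Nrg1 had counts in Control 1 alone among the Controls and was 152-fold (95% counting interval 51.7 to 739) higher over summed counts. Of 35 collagen chains, 0 were called higher and 2 lower (5.71%, below the 10.7% of all genes tested), Col13a1 (-1.81) and Col23a1 (-1.64). The first lost its call with 7 of the 10 libraries left out in turn, at log2 fold changes of -1.9 to -1.56. Neither Col1a1 at -0.14 nor Col3a1 at 0.61 was called. Without Control 1 and Control 4, 0 chains were called lower, with Col13a1 at -2.05 and Col23a1 at -1.66. Of 31 matrix protease and wound genes, 10 were higher and 2 lower, which is 32.3% and 6.45% against 11.3% and 10.7% of all genes tested. Timp1, an inhibitor of metalloproteinases, was at 6.35, 4.98, 4.91, 1.82 and 1.93 CPM in Control and 91.8, 75.4, 58.3, 40.3 and 32 CPM in Ai-α4KO libraries (log2 fold change 3.89, SE 0.427, adjusted p = 2.61e-05 in edgeR), while the family member Timp4 fell by 1.66. Mmp12 and Mmp3 rose by 3.15 and 1.96. Of 19 progenitor and fibroblast genes, Icam1 and Ly6a rose, by 1.94 and 1.02, the latter with its call lost without Control 1, Control 3 or Ai-α4KO 3, and Gsn and F3 fell, 10.53% in each direction and near the shares of all genes. Pdgfra, the marker of adipocyte progenitors, at 0.65 and Dpp4 at 0.05 were not called. Gsn, gelsolin, fell by 2.01 and F3, tissue factor, by 1.13.

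Of 18 endothelial genes, 7 fell and 0 rose (median -0.88), and 11 fell without Control 1, Control 4 and Ai-α4KO 1. Kdr, the VEGF receptor, was at 88.8, 91.1, 118, 62.6 and 72.2 CPM in Control and 24.4, 25.9, 23.4, 34 and 25.7 CPM in Ai-α4KO libraries (log2 fold change -1.7, SE 0.173, adjusted p = 1.64e-05 in edgeR), without overlap. Gpihbp1, which carries lipoprotein lipase across capillary walls, and Cldn5, a tight junction protein, fell by 2.04 and 2.18, and Pecam1 at -0.54 was not called. Of 14 Schwann cell and nerve genes, Prx, Cdh19 and Egfl8 fell, by 1.32, 1.68 and 1.16, and Ngfr rose by 1.64, which is 21.4% lower and 7.14% higher against 10.7% and 11.3% of all genes tested. The calls of Prx, Egfl8 and Ngfr were lost with 6, 6 and 7 of the 10 libraries left out in turn. Their log2 fold changes were then -1.37 to -1.16, -1.19 to -1.04 and 1.46 to 1.65. Without Control 1 and Control 4, 7 of the 14 genes were called lower. Of 5 skin epithelium genes tested, Trp63 was called lower (-1.34), a call lost with 8 of the 10 libraries left out in turn, at log2 fold changes of -1.47 to -1.13.

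In the cytosolic ribosome 1 of 76 genes, Rps27a, was called higher (list median 0.38), and between 0 and 6 were called over the scalings and library sets tried. The call of Rps27a (1.03) was lost with 7 of the 10 libraries left out in turn, at log2 fold changes of 0.896 to 1.01. In the proteasome only Psma8, a testis form below 3 CPM, was called among 38 genes (median 0.27). In the lysosome and vacuolar ATPase 7 of 38 rose (median 0.49), which is 18.4% against 11.3% of all genes tested. The summed share of counts of this list was 1.106 to 1.365% in Control and 1.594 to 1.92% in Ai-α4KO libraries, without overlap. The largest rise was that of Ctss, a cathepsin of macrophages and other antigen-presenting cells, at 340.1, 161, 140.2, 132 and 135 CPM in Control and 1227, 1443, 1802, 1144 and 1266 CPM in Ai-α4KO libraries (log2 fold change 2.92, SE 0.287, adjusted p = 1.31e-05 in edgeR), and Atp6v0d2 rose by 2.57. The widely expressed Ctsd at -0.18 and Npc2 at -0.13 were not called.

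The effect of α4 loss in iWAT was set against that in BAT, where 5 Control and 5 Ai-α4KO libraries of the same kind were available. The genotype effect differed between the depots for 740 of 15230 genes (4.86%, interaction at an adjusted p below 0.01 in an edgeR fit of all 20 libraries), of which 353 were called in iWAT. The number was 486 without Control BAT 1 and 474 without Control BAT 3. Effects in BAT below come from that fit. Cxcl10 rose more in iWAT, by 7.38 against 4.63 in BAT (interaction 2.75, adjusted p = 0.00627 in edgeR), as did Rsad2, by 4.58 against 2.97 (interaction 1.62, adjusted p = 0.00634 in edgeR). For Ifit1 and Isg15, from the same interferon list, the interaction was 0.02 and 0.01 and did not pass. Cdkn1a rose in iWAT and was at -0.19 in BAT (interaction 1.76, adjusted p = 0.00922 in edgeR). Otof and Ninl, which encode a calcium sensor of vesicle fusion and a centrosomal protein, rose in iWAT by 2.05 and 1.56 and were at -1.25 and -1.3 in BAT, with interactions of 3.3 and 2.87 that passed.

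Some other genes rose further in BAT. Ccl8 rose by 3.34 in iWAT against 7.36 in BAT (interaction -4.01, adjusted p = 6.49e-04 in edgeR), from Control iWAT levels of 105, 167, 67, 49.3 and 63.7 CPM, and the interactions of Ccl6, Ccl7, Itgax, Lyz2 and Ctss were negative too, between -2.32 and -1.28. Casp4 and Hmox1 rose less in iWAT than in BAT, by 2.57 against 4.85 and by 2.17 against 3.83. On the falling side, Ucp1 fell by 6.57 in iWAT and was at -2.35 in BAT (interaction -4.21, adjusted p = 0.00882 in edgeR), and the 2 lowest Control iWAT libraries were at 19.3 and 5.44 CPM. Slc2a5, a fructose transporter, and Ctf1 also fell further in iWAT, with interactions of -3.1 and -2.18. Alb and Fgf13 were lower in Ai-α4KO iWAT (-2.9 and -1.93) and at 3.06 and 2.22 in BAT. Alb was at 10.2, 21, 12.7, 121 and 65.5 CPM in Control iWAT and 9.17, 3.91, 3.89, 10.4 and 3.31 CPM in Ai-α4KO iWAT, high only in Control 4 and Control 5, and its iWAT call was lost with 5 of the 10 libraries left out in turn, both of these among them. For Fasn (-1.04), Adipoq (-0.0996), Il6 (0.55), Cxcl1 (0.54) and Igbp1 (-0.17) the interaction did not pass, which does not show that the depots responded alike.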

How the data were processed

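RNA of 5 Control and 5 Ai-α4KO iWAT libraries was analysed, with the 10 BAT libraries used only for the interaction. The kit keeps strand, and both fragment ends were sequenced (150 bp). The submitters' processing notes name bcl2fastq 2, STAR 2.5.3a and the mm10 build, and the counting tool is not given in the sources used here. The authors deposited expected counts per gene without normalization, of which 76.6% of the nonzero values equal a whole number exactly, and FPKM values, which the authors scaled by transcript width and library total. No batch is given in the labels.

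Expected counts of 25219 genes were rounded, filtered with filterByExpr and TMM-scaled, and 14604 genes were tested in R 4.3.3 with edgeR 4.0.16 (glmQLFit and glmQLFTest, Benjamini-Hochberg, called at an adjusted p below 0.01 and at least 2-fold). The fit used only the iWAT libraries, with no covariate. The interaction used 1 fit of all 20 libraries. Single values were compared over the 252 arrangements of 5 libraries against 5. Depth was 28059955 to 50384427 counts, and counting intervals are exact at 95%, given the sum of both groups. DESeq2 1.42.0, limma 3.58.1 on log2(FPKM + 1), other scalings, filters, thresholds, a replicate block and left-out libraries were the alternatives. The methods were tested on simulated data.

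The libraries, gene lists and markers were chosen with earlier results of these data known, so no list was given a p-value. Names follow a rule: Igbp1, the 12 largest folds and 12 largest CPM differences in each direction, the 5 largest shares of counts, up to 6 members of each list, the smallest p-values and the largest interactions. Any other list member was named after its values were seen, as were the promoters shown, and some named genes are not reported here. RefSeq promoters (GRCm38.p6) were matched by symbol for 10880 of the 14604 tested genes. The kit marks strand, but the counting setting is not given, so overlapping genes are uncertain.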

Additional observations from a re-analysis of the deposited data

Results flagged for a closer look

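Of 144 groups of 5 libraries examined, 2 for each of the 72 genes whose single libraries or depot differences are given above, 18 had a library standing apart by Dixon's test at its 95% level, which marks about 1 group in 20 by chance. Ai-α4KO 1, the library with skeletal muscle markers, stood apart in 5 of them: Spp1 at 828 CPM, Gpnmb at 127 CPM, Gdf15 at 47.6 CPM, Ctf1 at 2.01 CPM and Slc2a5 at 1.55 CPM, each above the rest of its group. Control 1, a library with lymphocyte markers, stood apart in 6: Ctss at 340.15 CPM, Gpnmb at 238 CPM, Spp1 at 164 CPM, Lcn2 at 19.6 CPM, Elane at 11.1 CPM and Fosl1 at 0.631 CPM. The part of the other tissue in these libraries was not tested for these genes. Ai-α4KO 4 was highest of its group for Fabp4 (13544 CPM), Kdr (33.99 CPM) and Nrg4 (23.1 CPM), and Ai-α4KO 2 for Cxcl1 (388 CPM). Control 2 was highest of its group for Il6 (0.165 CPM) and Csf3 (0.066 CPM), both at a few counts. Control 4 was lowest of its group for Lyz2 (632 CPM).

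For 19 of the 72 genes the genotype effect in iWAT differed from that in BAT at an adjusted p below 0.01 for the interaction in edgeR, and the difference, iWAT minus BAT on the log2 scale, follows. It was positive for Otof (3.30), Ninl (2.87), Cxcl10 (2.75), Cdkn1a (1.76) and Rsad2 (1.62). It was negative for the leukocyte and chemokine genes Ccl8 (-4.01), Ctss (-2.32), Ccl6 (-1.97), Ccl7 (-1.68), Lyz2 (-1.68) and Itgax (-1.28), all of which rose in both depots. It was also negative for Casp4 (-2.28) and Hmox1 (-1.66), and for the falling genes Ucp1 (-4.21), Slc2a5 (-3.10), Cox7a1 (-2.44) and Ctf1 (-2.18). The last 2, Alb (-5.95) and Fgf13 (-4.14), were lower in Ai-α4KO iWAT and higher in Ai-α4KO BAT.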

How the results depend on the processing

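The number of genes called higher or lower stayed within 1.5 times 1656 and 1559 under each alternative tried but 1: limma on log2(FPKM + 1) called 779 lower. DESeq2 called 1684 higher and 1796 lower, and library size scaling, with a median log2 fold change over all genes of 0.134 against 0.015, called 1894 and 1267. Over the 10 sets of 9 libraries the counts ran from 1465 to 1736 higher and from 1364 to 1743 lower. The number of genes with a depot difference, 740, depended more on the method, with 1640 under the Wald test of DESeq2, and ran from 474 to 1019 with single libraries left out. Of 225 named genes called, 188 kept direction and call in every setting and 0 reversed. Without Control 1, Control 4 and Ai-α4KO 1, the fold of these further genes moved by over 1.5 times: the log2 fold change was -7.804 for Slc2a5, -6.29 for Thrsp, -5.67 for Aspg, -5.35 for Sorcs2, -3.12 for Cfd, 2.696 for Nfkbie, 4.85 for Hpx and 4.86 for Bcl2a1d. With 1 library left out, it was 5.3 for Ptx3, 6.78 for Cxcl3 and 6.899 for Irg1 (Control 2), 4.76 for Gdf3 (Control 1), -4.47 for Slc27a2 (Control 3) and -6.79 for Tgm3 (Ai-α4KO 3). Some of these moved the other way in other settings. Tgm3 was at -5.17 without Control 5, against -5.83 with all 10 libraries. Without Control 1 and Control 4, Cxcl3 was at 5.25 and Irg1 at 5.64, against 5.97 and 6.31. Replicate numbers did not pair the samples: the correlation of same-numbered libraries was 0.095, -0.121, 0.105, -0.396 and 0.119, and no library correlated best with its own number. With the replicate block, edgeR called 1584 higher, 1461 lower and 534 with a depot difference. Leaving out the Rn45s and Rpph1 counts, added after seeing the data, gave 1656 and 1560. The median of the EGF and TGF-β ligand list was 0.112 with library size and -0.088 with upper-quartile scaling, and that of the collagen chains 0.026 and -0.159. The counts of the B and T lymphocyte, ribosome, endothelial and Schwann cell lists moved with the libraries left out, as given above. Library number, 1 time point and bulk tissue limit what these values can separate, and genes near 1 CPM rest on few counts.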

Other observations

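Within several gene families the members parted, 1 rising and another falling in the same libraries. These pairs were chosen after their values were seen, from 113 families, grouped by the start of the symbol, with called members on both sides. Other called members of these families are not listed, and some families were uneven. The Slc7 family had 5 higher and 1 lower, and the Slc2 family 1 higher and 4 lower. Among transporters, Slc2a6, a glucose carrier of leukocytes, rose by 3.2 on the log2 scale while Slc2a5, the fructose carrier, fell by 6.7, and the aquaporin Aqp9 rose by 2.45 while Aqp5 fell by 3.92. Slc7a11, which imports cystine, rose by 4.5, and Slc7a10, a neutral amino acid carrier of adipocytes, fell by 1.47. Among receptors, Adora2b and Adora1, both for adenosine, were at 2.64 and -2.11, and the prostaglandin E2 receptors Ptger4 and Ptger3 at 1.94 and -2.71.

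Enzymes parted in the same way. Aldh1a2, which makes retinoic acid, rose by 3.57, and Aldh6a1, of valine breakdown, fell by 2.52. Pdk3 rose by 1.78 and Pdk1 fell by 2.35, both kinases that switch off pyruvate dehydrogenase. Pik3r5, a regulatory subunit of the phosphoinositide kinase of leukocytes, rose by 2.23, and Pik3cb fell by 1.38. Of the phospholipases, Pla2g7 of macrophages rose by 2.12 and Pla2g16 of adipocytes fell by 2.29. Of the galectins, Lgals3 of macrophages rose by 1.78 and Lgals12 of adipocytes fell by 2.2. Of the cyclin kinase inhibitors, Cdkn1a rose by 1.56 and Cdkn1c fell by 2.35. The sums of macrophage and adipocyte markers given above moved in the same directions in these libraries, and their part in these pairs was not tested.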
